A study of Homo sapiens with 5 samples.

Results

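Immediate early and stress response genes were examined in R-loop maps of PC-9 cells, a lung adenocarcinoma line of human origin. The members are 50 named genes, and a peak was counted for a member when the deposited lists gave that gene's name. Of 80323 peaks in the 4 lists, 47 carried a member's name, and 25 of the 50 members had at least 1 peak in any list. The maps were made by DRIP-seq, in which the S9.6 antibody, raised against RNA:DNA hybrids, is used to capture fragments of genomic DNA. There were 2 libraries labelled control (control 1 and control 2) and 2 libraries labelled exp (exp 1 and exp 2). The exp pair is read as cells with knockdown of FANCI, a Fanconi anaemia gene, because the design text names that knockdown. No source used here states the agent, its duration or the number of clones or cultures, and the parental line is the same throughout. An input library made without antibody entered as read counts over the peaks. Nothing in the labels ties the libraries of a group to different cultures; p-values therefore reflect the spread among these 4 libraries, and that spread may be technical. The files hold no expression values, so neither the level of FANCI nor the markers of the cell type were checked.

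An R-loop forms when a transcript pairs with its template strand behind RNA polymerase and leaves the other strand single. Immediate early genes are switched on within minutes of a growth factor or stress signal, without new protein synthesis, through factors already bound at their promoters. Their products include transcription factors such as FOS and EGR1, and proteins that shorten the response such as the dual-specificity phosphatases. The members also include stress response genes, among them chaperones of the heat shock response. In cells with an active EGF receptor pathway, the MAP kinase cascade is a main input to immediate early genes.

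The lists held 25281 and 23903 peaks in control 1 and control 2 and 16785 and 14354 in exp 1 and exp 2. DRIP reads over all peaks of a list ranged from 646455 in exp 2 to 1266127 in control 1, with medians of 24 to 30 reads per peak. These sums move with the length that was called and are not the sequencing depth, which no source used here states. A peak at a member held a median of 31 DRIP reads, with a lowest of 19 and a highest of 100, so counting error is large for any single peak. Peaks of other protein-coding genes had a median of 29 DRIP reads.

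Peaks were assigned to fewer of these genes in exp. The number of members with a peak was 12 for control 1 and 14 for control 2, then 7 for exp 1 and 4 for exp 2, so both exp libraries lay below both controls without overlap. Group means were 13.0 ± 1.41 (SD, n = 2) in control and 5.50 ± 2.12 (SD, n = 2) in exp, a ratio of 0.423, with an exact two-sided permutation p = 0.333, the smallest that 2 libraries against 2 allow. As background, 24.7%, 25.2%, 18.0% and 14.5% of 20056 protein-coding genes had a peak in control 1, control 2, exp 1 and exp 2, and the ratio of exp to control over the other protein-coding genes was 0.652. Whether the members' ratio differs from that of other genes was not tested. The 3 members with a peak in both controls and in no exp list were DDIT4, EGR1 and ZFP36, which is 12.0% of the 25 members with any peak. Over all protein-coding genes with a peak in any list, 8.85% fell in this class. The class held 0 members when −log10 q had to reach 5 or when genes were taken by overlap with the RefSeq span, 6 without exp 1, and 8 or 9 without control 2 or control 1. No member had a peak in both exp libraries and neither control, a class that held 1.31% of such genes, and no member was named in all 4 lists, against 12.3%. Peaks in one or both controls and no exp library were found for 14 members (background 41.2%), in exp alone for 6 (background 13.9%) and in both groups for 5 (background 44.9%). The 6 were ATF4, HSPA5, HSPA8, IER5, JUNB and NR4A3, each in 1 exp library, and the 5 were FOS, FOSL1, HSP90AA1, JUND and SGK1. No member was named in both exp lists, a class with 18.7% of the 8428 protein-coding genes that had a peak in any list, which are 42.0% of all. These shares are over genes of all lengths, while 19 of the 25 members are under 10 kb. Among protein-coding genes under 10 kb with a peak, 26.1% had peaks in both groups, against the 44.9% above. Shares of such genes in all 4 lists or in both exp lists were not computed.

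**Figure D1:**
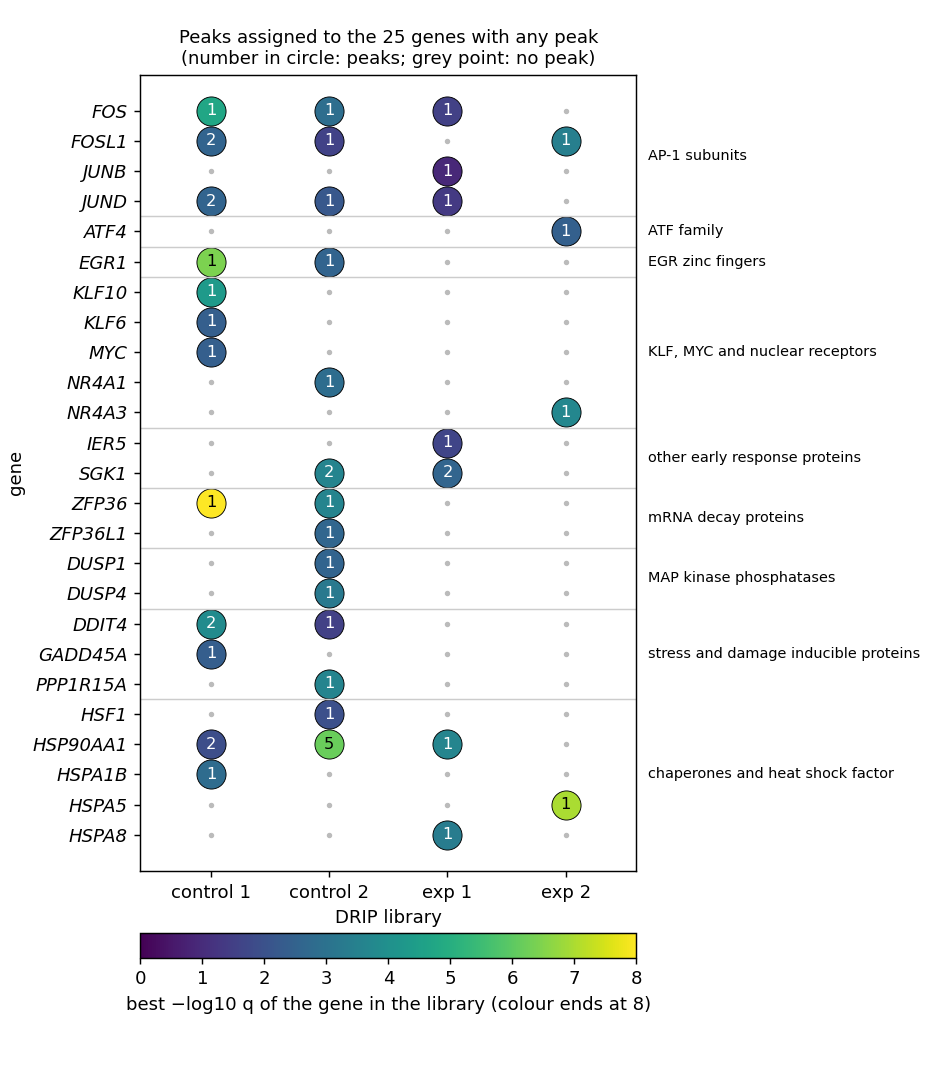
Peaks assigned to the 25 genes with any peak (rows, grouped by role) in each DRIP library (columns). The number in a circle is the number of peaks and the colour is the best −log10 q of that gene in that library, grey points mark no peak, and the columns hold 12, 14, 7 and 4 genes from left to right.

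Members were shorter than most genes, with a median RefSeq length of 4946 bp against 24093 bp for all protein-coding genes, and 40 of the 50 were under 10 kb. Among those 40, peaks were assigned to 11 and 9 members for the controls and to 5 and 3 for exp, or 27.5%, 22.5%, 12.5% and 7.50%. Other protein-coding genes under 10 kb had a peak in 11.0%, 8.52%, 5.12% and 4.25% of cases in the same order. By assigned peaks the members' share was higher than that of other short genes in each of the 4 libraries, which did not hold in control 2 and exp 1 when peaks were counted by overlap with the gene span. The exp over control ratio was 0.400 for short members and 0.481 for other short genes, and this difference was not tested. Of the 19 short members with a peak in any list, 11 had it in control alone, 5 in exp alone and 3 in both groups, against 58.5%, 15.4% and 26.1% of 1071 short protein-coding genes. DDIT4, EGR1 and ZFP36 are all short, and 8.50% of these 1071 genes had a peak in both controls and in no exp list, with 1.12% in the reverse class. When any peak overlapping the RefSeq span itself was counted, whatever gene the lists named, the short members with a peak were 10 and 2 for the controls and 1 and 3 for exp, and the groups overlapped. Those were 25%, 5%, 2.5% and 7.5% of short members, against 9.56%, 6.51%, 3.93% and 3.35% of other short genes. With 3 kb on either side of the span, the numbers were 13 and 13 against 5 and 5, where the background was 17.5%, 14.7%, 9.17% and 7.41%. Over all 50 members the spans alone gave 12 and 7 against 4 and 6, which is below the background of 26.7%, 27.1%, 19.9% and 16.2% in each library. Of the 10 longer members, peaks were assigned to 1 and 5 for the controls and to 2 and 1 for exp, against 30.2%, 31.8%, 23.2% and 18.6% of other genes of that length.

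**Figure D2:**
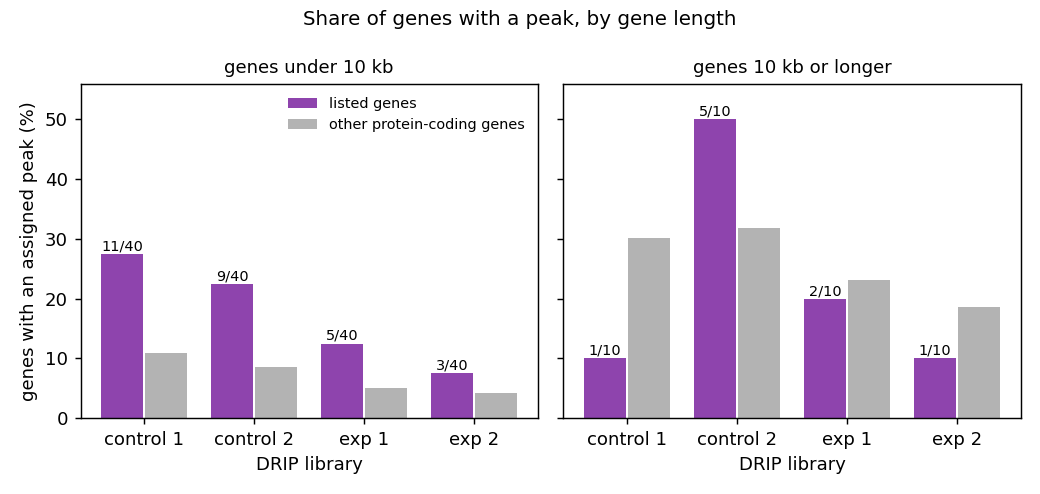
Percentage of genes with an assigned peak in each DRIP library, for genes under 10 kb (left) and 10 kb or longer (right). Purple bars are the listed genes with counts above them and grey bars are the other protein-coding genes. Short listed genes exceeded other short genes in each library, and longer listed genes exceeded other long genes in control 2 alone.

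Of the 47 member peaks, 16 touched a promoter, 12 touched a terminator (25.5%) and 23 lay in the gene body alone (48.9%). For other protein-coding genes under 10 kb these shares were 43.9%, 41.2% and 27.3%, and for all other protein-coding genes 10.1%, 7.68% and 83.7%. Promoter peaks at members numbered 8, 5, 3 and 0 in control 1, control 2, exp 1 and exp 2, a ratio of 0.231 with an exact two-sided permutation p = 0.333. The ratio over other protein-coding genes was 0.356. Leaving out exp 1 brought the members' ratio to 0 and leaving out exp 2 to 0.462. With −log10 q of at least 2, promoter peaks at members numbered 6, 4, 0 and 0 in the same order. The exp 1 promoter peaks had −log10 q of 0.878 (JUNB), 1.63 (IER5) and 1.36 (JUND). Genes with a promoter peak made up 5.35%, 4.08%, 1.86% and 1.56% of all protein-coding genes in the 4 libraries, against 7, 5, 3 and 0 of the 50 members. Of the 11 members with a promoter peak in any list, 8 had it in control alone, 2 (IER5 and JUNB) in exp alone and 1 (JUND) in both, where the background for control alone was 68.7% and for exp alone 15.9%. DDIT4 and ZFP36 had a promoter peak in both controls and in no exp list (background 7.95%), although the ZFP36 peaks lie past the end of that gene and near the start of PLEKHG2, and no member had the reverse (background 0.675%). Terminator peaks at members numbered 6, 4, 1 and 1, a ratio of 0.2 against 0.469 for other protein-coding genes. Peaks in the gene body alone numbered 5, 11, 4 and 3, a ratio of 0.438 against 0.567, and 5 of the 11 were from HSP90AA1. Whether these ratios differ from those of other genes was not tested.

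Most promoter peaks of members did not sit on the transcription start. The summits of 9 of the 16, from DDIT4, EGR1, FOSL1, IER5, JUND and PPP1R15A, lay 1500 to 2500 bp upstream of the nearest RefSeq start. For 2697 promoter peaks of other protein-coding genes this share was 15.1%, and 16.1% for those of genes under 10 kb. Summits within 500 bp of the start were found at GADD45A, 22 bp past it, and at MYC, 283 bp past it, which is 2 of 16 against 21.8% for other genes. The 9 upstream summits came from 6 genes and are not independent, and the difference in shares was not tested.

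**Figure D3:**
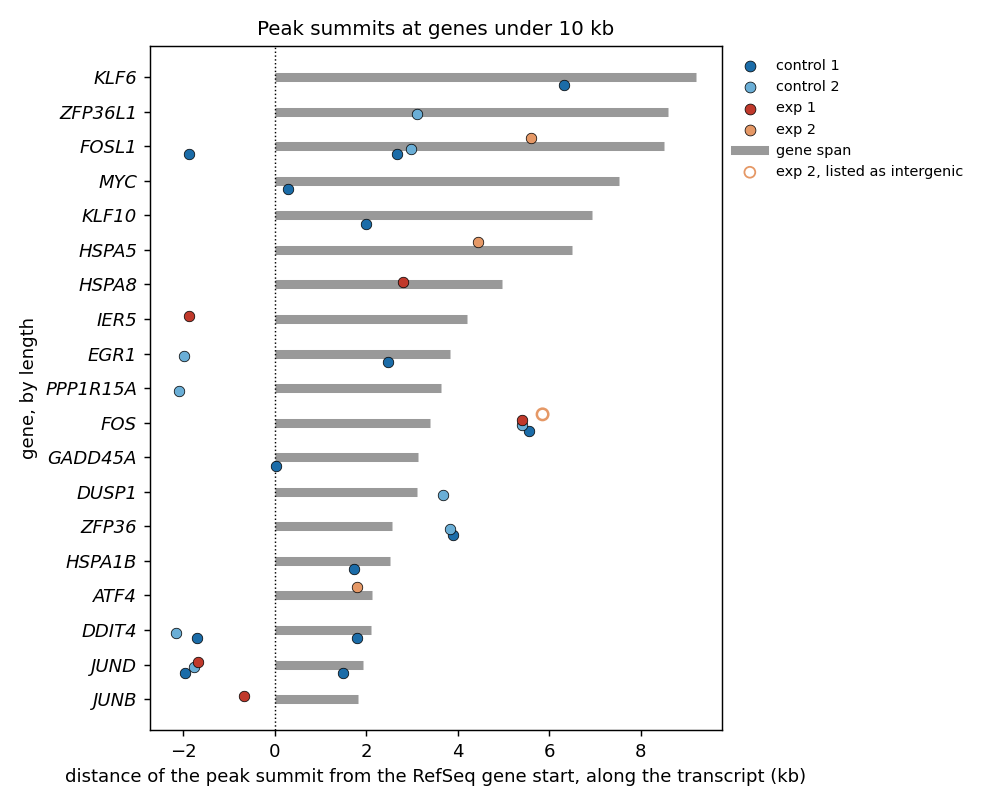
Position of each peak summit (points, coloured by library) relative to the RefSeq gene start along the transcript, in kb, for the 19 genes under 10 kb with a peak. Grey bars are the gene spans and the open circle is the exp 2 peak downstream of FOS that its list names as intergenic. Summits of DDIT4, EGR1, FOSL1, IER5, JUND and PPP1R15A lie near 2 kb upstream of the start, and those of FOS, ZFP36 and DUSP1 lie past the gene end.

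Among the AP-1 subunits, which pair as FOS and JUN family dimers at AP-1 sites, 4 of 7 had a peak, FOS, FOSL1, JUNB and JUND. By library, 3, 3, 3 and 1 of them had a peak, in the order used above. FOS, FOSL1 and JUND were among the 7 members with a peak in both controls, a class that took 28.0% of the members with any peak and 32.8% of all such protein-coding genes. No peak was assigned to FOSB, FOSL2 or JUN. Among protein-coding genes of all lengths, 42.0% had a peak in any list. That share, also used for the families below, is not matched to the short length of most members. By library, 4.25% to 11.0% of other protein-coding genes under 10 kb had a peak, against 14.5% to 25.2% at all lengths.

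FOS (ENSG00000170345), the founding immediate early gene, had no peak at its promoter or body in any library, and the peaks given its name lay downstream of the gene. The peaks spanned chr14:75284216-75284771 in control 1, 75284199 to 75284684 in control 2 and 75284211 to 75284755 in exp 1 (GRCh38), with summits 2145, 2011 and 2005 bp past the RefSeq end at 75282230. The lists class these as terminator. In exp 2 a peak at 75284528 to 75285367 overlapped them, with its summit 2451 bp past the gene end. That list calls it intergenic and gives it no gene. The region downstream of FOS was therefore called in all 4 libraries although the name FOS appears in 3 lists.

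DRIP reads at this region numbered 67 and 55 in controls 1 and 2 and 50 and 71 in exp 1 and 2, over peaks of 556, 486, 545 and 840 bp. Input reads over the same peaks numbered 21, 19, 22 and 18. Median input reads per member peak were lower, at 5, 7, 5 and 7 in the same order, and 6, 7, 6 and 7 for other protein-coding genes. DRIP over input reads was 3.19, 2.89, 2.27 and 3.94. Per kb of peak there were 121 DRIP reads (95% Poisson interval 93.4 to 153) in control 1, 113 (85.3 to 147) in control 2, 91.7 (68.1 to 121) in exp 1 and 84.5 (66.0 to 107) in exp 2. Both exp values lay below both controls, and the intervals, which cover counting error only, overlapped. The values per kb were not scaled between libraries, whose lists differ in DRIP reads over all peaks. How many other regions show the same order was not counted. The deposited fold enrichments were 4.17, 3.36, 2.75 and 4.79, so exp 2 had the highest and exp 1 the lowest.

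This region was the only member region among 1370 regions with exactly 1 peak in each library, on which edgeR's quasi-likelihood test was fitted. Its log2 change, exp over control, was -0.23 (SE 0.25), with an adjusted p = 0.970 in edgeR over all 1370 regions. In this fit, which scales the libraries, the change lay at percentile 20.7 of the log2 changes of these regions. No region passed the adjusted threshold, which is 0% of those tested, while 98 had an unadjusted p below 0.05, and DESeq2 also called 0. On simulated counts the test recovered 42.0% of 100 regions changed 2-fold and 98.0% of 100 changed 4-fold, all changed at once among the 1370. These shares apply only to regions with a peak in each library and to that many changed regions. Recovery of a single changed region was not simulated. A region that lost its peak in an exp list was not among the 1370 and was not tested. Each library was counted over its own peak, so the exp 2 value covers a stretch that reaches further from the gene than the others.

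**Figure D4:**
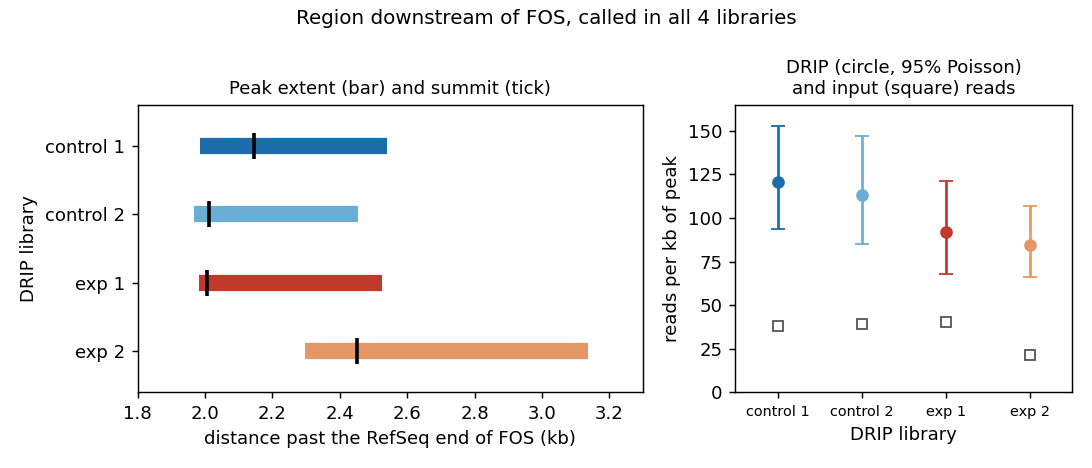
Left, extent (bars) and summit (ticks) of the peak downstream of FOS in each library, as distance past the RefSeq gene end in kb. Right, DRIP reads per kb of peak (circles, with 95% Poisson intervals) and input reads per kb (squares), where the DRIP values are 121 and 113 for the controls against 91.7 and 84.5 for exp, with overlapping intervals. The values are not scaled between libraries.

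JUND (ENSG00000130522), a JUN family subunit present in resting cells, had an upstream region in 3 libraries. Its promoter peaks lay at chr19:18283266-18283619 in control 1, 18282980 to 18283461 in control 2 and 18283267 to 18283896 in exp 1. They held 25, 23 and 34 DRIP reads against 4, 7 and 4 input reads, with fold enrichments of 3.58, 3.87 and 3.31. Exp 1 had more DRIP reads than either control, over a wider peak, and exp 2 had no peak there. Control 1 alone also had a terminator peak, chr19:18279862-18280223, of 27 DRIP over 2 input reads.

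FOSL1 (ENSG00000175592), a FOS family subunit induced through the MAP kinase pathway, had gene-body peaks at different places. Control 1 had one at chr11:65897659-65897964 (24 DRIP over 3 input reads), which overlapped that of control 2 at chr11:65897327-65897699 (19 over 3). Their summits lay 2669 and 2971 bp past the start. The exp 2 peak, at chr11:65894636-65894978, had its summit 5591 bp past the start and held 29 DRIP over 8 input reads. Control 1 also had a promoter peak of 30 DRIP reads, with its summit at -1878 bp from the start. JUNB, a JUN family subunit, had a single promoter peak in exp 1 with 22 DRIP and 0 input reads. Its fold enrichment of 2.90 was at or above that of 8.33% of the protein-coding peaks of that list. The start of the neighbouring gene HOOK2 lies within 3 kb of this peak.

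Of the EGR zinc finger factors, EGR1 had peaks and EGR2, EGR3 and EGR4 had none. EGR1 (ENSG00000120738), induced through serum response elements, had a gene-body peak in control 1 at chr5:138467758-138468128, that held 32 DRIP over 5 input reads, a fold enrichment of 5.95. The control 2 peak, in the promoter class at chr5:138463321-138463674, held 19 DRIP over 6 input reads, a fold enrichment of 4.04. The summits were at 2484 and -1974 bp from the gene start, so the controls shared the gene but not the place.

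Of 8 KLF, MYC and NR4A genes, 5 had a peak, against 42.0% of protein-coding genes of all lengths, and each had it in a single library. KLF10, KLF6 and MYC had 1 in control 1, NR4A1 had 1 in control 2 and NR4A3 had 1 in exp 2. The MYC peak, in the promoter class at chr8:127735643-127736131, held 35 DRIP and 8 input reads with a fold enrichment of 3.73. KLF10, a TGF-beta inducible zinc finger factor, and KLF6, a tumour suppressor of the same family, had gene-body peaks with 31 and 29 DRIP reads. NR4A1 and NR4A3, orphan nuclear receptors induced within the hour, had gene-body peaks with 21 and 25 DRIP reads. KLF2, KLF4 and NR4A2 had none. The ATF family had 1 peak, a terminator peak of ATF4, the main transcription factor of the integrated stress response, in exp 2 with 37 DRIP and 7 input reads, and ATF3 had none.

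ZFP36 (ENSG00000128016), the tristetraprolin protein that binds AU-rich elements and speeds the decay of early mRNAs, held the strongest of all member peaks by fold enrichment. In control 1 the peak at chr19:39410474-39410872, had 51 DRIP and 5 input reads and a fold enrichment of 9.39, at or above 99.4% of the protein-coding peaks of that list. In control 2 the overlapping peak at 39410523 to 39410948 had 26 DRIP and 7 input reads and a fold enrichment of 4.73. Neither exp list had a peak there. The summits lay 1335 and 1272 bp past the RefSeq end of ZFP36, and the lists class the place as promoter and terminator together. The start of the neighbouring gene PLEKHG2 lies within 3 kb. The GC skew was -0.41 in control 1 and -0.35 in control 2, read on the ZFP36 transcript strand, which means more C than G on that strand.

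ZFP36L1, a relative of ZFP36 with the same RNA-binding domain, had a gene-body peak in control 2 that covered its downstream RefSeq start. The peak at chr14:68792886-68793516 held 36 DRIP and 6 input reads with a fold enrichment of 4.09. For 37 members the sequence from 250 bp before to 50 bp after a RefSeq start was used, and this was 1 of 2 among them in which a peak overlapped it. GADD45A is not among the 37 and also had a peak over its start. The other was at the upstream start of HSP90AA1 in control 1, where the peak, at chr14:102139565-102139925, is assigned to the divergent neighbour WDR20 and held 36 DRIP and 7 input reads. Over 15843 protein-coding genes, this stretch was covered for 2.23% and 1.16% of genes in controls 1 and 2 and for 0.309% and 0.303% in exp 1 and 2. Both stretches (RefSeq, GRCh38.p14, minus strand, 5′ to 3′) are shown because, among those 37 members, they are the promoters under a peak, and capitals mark the bases under it, 150 for ZFP36L1 at chr14:68793367-68793666 and 226 for HSP90AA1 at chr14:102139700-102139999.
ZFP36L1: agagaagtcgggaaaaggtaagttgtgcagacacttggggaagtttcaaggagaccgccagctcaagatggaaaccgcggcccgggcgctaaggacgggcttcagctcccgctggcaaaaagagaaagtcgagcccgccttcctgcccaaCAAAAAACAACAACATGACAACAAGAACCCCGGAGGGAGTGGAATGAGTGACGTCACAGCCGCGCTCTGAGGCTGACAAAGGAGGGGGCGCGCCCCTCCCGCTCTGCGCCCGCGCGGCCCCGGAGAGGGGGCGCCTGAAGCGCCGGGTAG
HSP90AA1: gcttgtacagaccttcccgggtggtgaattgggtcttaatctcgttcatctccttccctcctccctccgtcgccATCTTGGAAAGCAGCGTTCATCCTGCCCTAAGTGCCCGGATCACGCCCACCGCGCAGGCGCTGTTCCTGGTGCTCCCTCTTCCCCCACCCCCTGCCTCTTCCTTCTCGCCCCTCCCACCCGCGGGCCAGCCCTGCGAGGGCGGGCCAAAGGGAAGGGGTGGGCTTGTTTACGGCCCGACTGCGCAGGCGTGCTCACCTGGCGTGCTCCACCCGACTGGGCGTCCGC

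The bases under the peak were 66.7% G or C at ZFP36L1 and 69.5% at HSP90AA1. Their GC skew on the transcript strand was 0.06 and -0.17. The capitals of ZFP36L1 hold TGACGTCA, the cAMP response element bound by ATF and CREB factors. This sequence, searched on both strands, occurred in 2.26% of 22199 windows of protein-coding genes and in 4 of the 50 member windows, those of DUSP1, JUND, PPP1R15A and ZFP36L1. No motif searched here occurred in the HSP90AA1 stretch shown. The core of the heat shock element, GAANNTTC, occurred in 5.67% of all windows and in 9 member windows. These were of DNAJB1, HSPA1A, HSPA1B, HSPA8, IER5, JUN, ZFP36L1 and another start of HSP90AA1. The ZFP36L1 stretch shown holds it outside the capitals. A TATA box, TATAAA, occurred in 9.47% of all and in 15 member windows, and the AP-1 site TGACTCA in 4.01% and in 3. Some genes have several windows, which share sequence. Among the 37 members with a window, the 19 with an assigned peak and the 18 without had median GC contents of 66.3% and 63.0%, and the median of other protein-coding genes was 62.7%.

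Of the MAP kinase phosphatases, which switch off the kinases that induce them, DUSP1 and DUSP4 had terminator peaks in control 2, with 25 and 23 DRIP reads and fold enrichments of 4.04 and 4.44. Neither had a peak in any other library, and DUSP5 and DUSP6 had none. The share of protein-coding genes of all lengths with a peak in any list was 42.0%, and 41.2% of those had it in control alone.

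Of the stress and damage inducible genes, DDIT4, GADD45A and PPP1R15A had peaks, all in control libraries. All are under 10 kb, where 58.5% of protein-coding genes with a peak in any list had it in control alone. A peak in any list was found for 42.0% of protein-coding genes of all lengths. DDIT4 (ENSG00000168209), an inhibitor of mTORC1 induced by hypoxia and energy stress, had overlapping promoter peaks in both controls. The control 1 peak at chr10:72272075-72272427 held 30 DRIP over 2 input reads, a fold enrichment of 4.53. The control 2 peak at chr10:72271662-72272090 held 34 DRIP over 10 input reads, a fold enrichment of 3.11. These peaks overlapped only at their edges, with summits at -1697 bp from the gene start in control 1 and -2164 bp in control 2. Control 1 had another near the gene end, chr10:72275553-72275865, of 34 DRIP over 8 input reads. The start of the neighbouring gene DDIT4-AS1 lies within 3 kb of each of these DDIT4 peaks. GADD45A, a p53 and stress target that slows the cell cycle, had a promoter peak over its start in control 1 with 25 DRIP and 4 input reads. PPP1R15A, the GADD34 subunit that lets eIF2 alpha be dephosphorylated, had a promoter peak in control 2 with 47 DRIP and 12 input reads. DDIT3, GADD45B and GADD45G had none.

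Chaperones and their regulator HSF1 had peaks in each group, 5 of 7 members in all, against 42.0% of protein-coding genes of all lengths. HSP90AA1 (ENSG00000080824), the inducible cytosolic HSP90, took 8 of the 47 peaks, 2 and 5 in controls 1 and 2 and 1 and 0 in exp 1 and 2. A single region, at chr14:102097335-102098729, was called in more than 1 library. It held 100 DRIP and 33 input reads in control 2 and 88 DRIP and 23 input reads in exp 1, with fold enrichments of 4.95 and 3.98. The lists class it as gene body. Its summits lay upstream of the nearest RefSeq start, at -11047 bp from it in control 2 and -11285 bp in exp 1. A further control 2 peak of this gene lay at -18190 bp, and its other peaks lay past the nearest start. Control 1 had a terminator peak of 29 DRIP over 6 input reads and a gene-body peak of 38 over 10, with fold enrichments of 2.80 and 2.99. HSPA5, the endoplasmic reticulum chaperone BiP, had the strongest exp peak of any member, in exp 2 at chr9:125236663-125237125, with 47 DRIP and 7 input reads and a fold enrichment of 6.27, at or above 97.0% of that list's protein-coding peaks. HSPA8, the constitutive HSC70, had a gene-body peak in exp 1 with 34 DRIP and 5 input reads. HSPA1B, an inducible HSP70 gene, had a peak in control 1 with 31 DRIP and 5 input reads, and its near-identical copy HSPA1A had none, so the placement of reads between these genes is uncertain. HSF1, the master factor of the heat shock response, had a gene-body peak in control 2 with 25 DRIP reads, and DNAJB1 had none by name.

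Among other early response genes, SGK1 and IER5 had peaks and 7 members had none, namely IER2, IER3, BTG1, BTG2, MCL1, TRIB1 and SOCS3. SGK1, a kinase induced by serum and glucocorticoids, had 2 gene-body peaks in control 2 and 2 in exp 1, none of them overlapping. They held 30 and 33 DRIP reads in control 2 and 26 and 24 in exp 1. All lay inside the RefSeq span of 148857 bp but upstream of the nearest RefSeq start. Their summits were at -40852 and -68283 bp from that start in control 2 and at -19831 and -54648 bp in exp 1. IER5 had a promoter peak in exp 1 with 22 DRIP reads, and the start of LOC124904465 lies within 3 kb of it.

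Of 39 regions with a member peak, 6 were called in 2 or more libraries, which is 15.4%, against 18.0% of regions with a peak of another protein-coding gene. These 6 were at DDIT4, FOS, FOSL1, HSP90AA1, JUND and ZFP36. An overlap of 1 bp was enough, and at DDIT4 and FOSL1 the control peaks overlapped only at their edges. The GC skew of member peaks was mostly small. Its absolute value had a median of 0.11, against 0.16 for other protein-coding genes, and exceeded 0.3 in 5 of 47 peaks, or 10.6%, against 29.2%. For peaks of other genes under 10 kb the share was 25.9%. The 5 peaks were those of EGR1 in control 1, JUNB in exp 1, ZFP36 in both controls and the second DDIT4 peak, and all but the last had more C than G on the transcript strand. Fold enrichments of member peaks ran from 2.75 to 9.39 with a median of 4.03, and those of other protein-coding genes had a median of 3.85. By library the order differed, since member medians were lower in control 1 (3.94 against 4.02) and exp 1 (3.37 against 3.72) and higher in control 2 (4.04 against 3.81) and exp 2 (4.64 against 3.82). In all 47 member peaks DRIP reads outnumbered input reads, with no correction for depth.

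Related genes outside the list were counted in the same way. Of 137 related genes, a peak was assigned to 28 and 36 for the controls and to 24 and 19 for exp, beside the background of 24.7%, 25.2%, 18.0% and 14.5% of all protein-coding genes given above. For 18 other AP-1 and ATF genes the numbers were 8 and 8 against 4 and 5, and 2 had a peak in all 4 libraries. MAFF, a small MAF factor, had overlapping promoter peaks on chromosome 22, starting between 38200480 and 38200820, whose DRIP reads numbered 59 and 71 for the controls and 43 and 31 for exp. These reads are not scaled by width, and both control peaks were wider than both exp peaks. They ran from 38200820 to 38201553 and 38200480 to 38201263 in controls 1 and 2. In exp 1 and exp 2 they ran from 38200541 to 38201028 and 38200819 to 38201290. ATF6, a sensor of unfolded proteins, had gene-body peaks that overlapped between control 2 and exp 1 and lay elsewhere in control 1 and exp 2. For 44 other immediate early and feedback genes the numbers were 7 and 5 against 5 and 3, with none in all 4. For 32 MAP kinase and phosphatase genes they were 6 and 10 against 7 and 6, with a peak of DUSP16, a phosphatase of MAP kinases, in all 4 libraries and RPS6KA2 in both controls and in no exp list. The strongest DUSP16 peaks overlapped between the controls and lay elsewhere in exp 1 and in exp 2. Those of RPS6KA2 did not overlap. For 43 genes of the heat shock and unfolded protein responses the numbers were 7 and 13 against 8 and 5. Of these, EIF2AK3, the kinase PERK, and HSPA4 had a peak in both controls and in no exp list, and EIF2AK4, the kinase GCN2, in both exp libraries and neither control. The strongest peaks of each of these 3 genes lay at different places in the 2 libraries.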

How the data were processed

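Each DRIP library has its own deposited peak list, and all 4 were used. GRCh38 is the build and MACS2, Bowtie2, cutadapt, FastQC and DiffBind are the tools that appear in the submitters' processing notes, with neither versions nor settings. Per the file headers, a peak carries a gene, a location class, unnormalized DRIP and input read counts, and a fold enrichment, which is a ratio over a local Poisson background. The deposited p-value and q-value columns were read as −log10 values, because the lowest p entry was 3.00 in each list although the headers name a further factor. The deposited GC skew score was read on the reference strand: over peaks covering a promoter window it correlated with the window's transcript-strand skew at r = 0.911 for 61 plus-strand and -0.956 for 65 minus-strand pairs.

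Members were matched by name, and all 50 matched RefSeq (GRCh38.p14), as did 97.0% of protein-coding names with a peak. The members and lists were chosen with earlier results of these data known. Members with a peak in both libraries of a group, or with a promoter or terminator peak, were named with values; other members with a peak are named more briefly. Related genes were named where they had a peak in all 4 libraries or in both libraries of 1 group alone, up to 4 per class. A related gene that met this rule is not reported here. Numbers of members and peaks were compared between groups with a two-sided exact permutation test. Peaks sharing at least 1 bp were merged. DRIP counts of regions with 1 peak per library were tested with edgeR 4.0.16 (R 4.3.3), with the log of peak width as offset and TMM factors computed on counts scaled by width, at an adjusted p of 0.05, after a test on simulated data; DESeq2 1.42.0 was an alternative. In simulated unchanged regions 1.03% were called. Python 3.11.15 was used for all other steps.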

Additional observations from a re-analysis of the deposited data

How the results depend on the processing

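The direction, fewer in exp, held for members with a peak, member peaks and promoter peaks at members under each alternative run. The exp over control ratio of members with a peak was 0.423, and 0.318 to 0.526 under 6 other settings of peak threshold, peak number and gene assignment, including any peak within 3 kb of the gene span, which was added after seeing the data. Without 1 library in turn it ran from 0.308 to 0.538, that of member peaks from 0.229 to 0.457, and that of promoter peaks from 0 to 0.462, where the exact p was 0.667 without control 1 or without exp 2. With −log10 q of at least 5 the exact p was 0.667 for members with a peak and 1 for promoter peaks, since 1 promoter peak was left. With an exact paired permutation test by replicate number (replicate block, added after seeing the data) p was 0.5 for each, the smallest that 2 pairs allow, and the ratio of members stayed at 0.423. In edgeR the replicate block called 0 regions and gave FOS a log2 change of -0.25. The labels do not say that a number marks a shared batch, and deviations of same-numbered libraries correlated at -0.08 over 1370 regions.

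Members in both controls and neither exp library, 3 in the lists as deposited, numbered 0 with −log10 q of at least 5, 0 with genes taken by overlap with the RefSeq span and 6 with any peak within 3 kb. They numbered 4 with −log10 q of at least 2, where FOS and JUND entered and DDIT4 left because peaks were lost at that threshold. FOS entered by name only, since the unnamed exp 2 peak of its downstream region had −log10 q of 5.58. The same holds for FOS among the 6 members without exp 1. Without 1 library they numbered 4 to 9, being 8 without control 2, 9 without control 1 and 6 without exp 1, since presence in the remaining library then suffices. The reverse class ran from 0 to 3, being 3 without exp 1 and 3 without exp 2. EGR1 left the class when the peaks of both controls had to overlap by at least 1 bp. For shared regions, calls numbered 6 with relative log expression factors and 0 to 3 without 1 library, the 3 arising without exp 1. FOS kept its sign throughout, from -0.39 to -0.09, and had no value where each peak had to cover at least 50% of the merged region. The cause of these differences was not tested except where stated. Counting error limits each single peak, and 2 libraries per group limit each comparison.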

Other observations

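Some members had peaks inside or close to their span that the lists gave to another gene or to none. Downstream of IER2, an immediate early nuclear protein, control 2 and exp 2 had overlapping intergenic peaks, at chromosome 19, 13157467 to 13157982 and 13157407 to 13158007, with 30 and 43 DRIP reads over 7 input reads each. Their summits lay 2736 and 2933 bp past the gene end, and their deposited GC skew was -0.32 and -0.33 on the reference strand, the strand of the IER2 transcript. Like the region downstream of FOS, this place was shared by a control and an exp library and carried no member's name in exp 2.

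At IER3, which protects cells from apoptosis, a peak of 24 DRIP and 6 input reads in control 1 overlapped an edge of the RefSeq span and was assigned to IER3-AS1. Upstream of NR4A1, control 1 had an intergenic peak with 32 DRIP and 4 input reads, its summit at -892 bp from the RefSeq start. The RefSeq span of DNAJB1, an HSP40 cochaperone, overlaps TECR, and the lists name TECR for peaks there in each library. Among them the place near chromosome 19, 14551829 was called in control 2 with 43 DRIP and 3 input reads and in exp 2 with 48 and 3. Near ATF4, control 2 had an intergenic peak with 56 DRIP and 14 input reads, 3537 bp past the gene end.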
